A study of Mus musculus with 3 samples.

Results

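The matrix metalloproteases (MMPs), the ADAMTS proteases and the tissue inhibitors of metalloproteases (TIMPs) were followed in 3 mouse RNA samples, each hybridised to 1 Affymetrix array. Members were all probe sets with a single gene symbol of the form Mmp, Adamts or Timp followed by a number. They came to 68 of 28943 probe sets and to 44 of 19938 genes, namely 22 MMP, 18 ADAMTS and 4 TIMP genes. Adamts2 and Mmp15 were not analysed here.

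The first sample was mouse fibroblasts in culture. The second, DiBA, is also labelled as cultured, in a series whose title speaks of brown adipocytes made by direct conversion. The third, BA, has brown adipose tissue as source and tissue while its description and growth protocol are those of cultured cells, so the labels do not settle which was used. Genotype, strain, age, the cells from which DiBA were made and any agent given are not stated in the labels, and the treatment field of all samples is marked as not applicable. Every group was 1 array. No difference below has a replicate error or a test, and each describes these arrays only.

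MMPs and ADAMTS proteases are zinc-dependent enzymes that cut proteins outside the cell. MMPs are made as inactive precursors, and between them they degrade collagens, gelatin, elastin and other matrix proteins, while ADAMTS enzymes cut proteoglycans, procollagens and a few other secreted proteins. TIMPs bind the active site of these enzymes and block it. In fat tissue, turnover of the collagen network by such enzymes, Mmp14 among them, accompanies the growth of adipocytes.

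The promoters of 14 of the 44 members were not searched, as they had no entry by symbol in the RefSeq promoter table of GRCm38.p6. These were Mmp2, Mmp9, Mmp16, Mmp17, Mmp19, Adamts4, Adamts5, Adamts6, Adamts7, Adamts8, Adamts10, Adamts15, Adamts16 and Adamts19. The other 30 were found there, with 33 transcription starts. The 250 bases before each start were searched for TGAGTCA, the binding letters of AP-1 (dimers of Fos and Jun proteins), on both strands, where it reads TGACTCA on the other one, and for TATAAA, the core of a TATA box, on the gene's strand. The AP-1 letters were in 7 of the 33 member windows (21.2%), against 4.46% of 32851 windows of that length. They belonged to Mmp1a, Mmp1b, Mmp3, Mmp7, Mmp10, Mmp12 and Mmp13, all of which lie in an uninterrupted run of 10 MMP genes, counting protein-coding genes, on chromosome 9. TATAAA was in 9 windows (27.3%), against 7.59% of all. AGGTCA, a half-site of nuclear receptors, was in 12.1% of member windows and 14.0% of all, searched on both strands. TTGCNNAA, a core of C/EBP sites, was in 18.2% and 9.56%, also on both strands. Every member with AGGTCA or TTGCNNAA lies in the same run, as does every one with TATAAA except Adamts1 and Mmp21. Neighbouring genes of 1 family are not independent windows, so the member shares rest mostly or wholly on that run. These are matches of letters and show no binding.

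The 4 windows printed here are those of neighbours on chromosome 9 that share the AP-1 letters. The values of Mmp13, Mmp12 and Mmp3 differed between the arrays, and those of Mmp10 were equal on all of them. The windows are Mmp13 at chr9:7272264-7272513, Mmp12 at chr9:7347124-7347373 (the one of its 2 listed starts that has them), Mmp3 at chr9:7445572-7445821 and Mmp10 at chr9:7502092-7502341, all on the plus strand of GRCm38.p6. Each is written 5′ to 3′ and ends at the base before the start, with AP-1 letters and TATAAA in capitals, which did not overlap.
Mmp13: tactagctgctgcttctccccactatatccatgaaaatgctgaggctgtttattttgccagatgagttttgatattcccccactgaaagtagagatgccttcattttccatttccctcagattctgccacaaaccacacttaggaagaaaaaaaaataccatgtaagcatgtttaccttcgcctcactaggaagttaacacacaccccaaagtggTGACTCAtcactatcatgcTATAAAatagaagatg
Mmp12: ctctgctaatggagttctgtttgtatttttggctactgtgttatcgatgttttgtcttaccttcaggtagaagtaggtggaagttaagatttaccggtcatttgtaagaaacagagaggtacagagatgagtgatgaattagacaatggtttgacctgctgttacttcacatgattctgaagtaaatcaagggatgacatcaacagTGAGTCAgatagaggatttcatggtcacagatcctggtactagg
Mmp3: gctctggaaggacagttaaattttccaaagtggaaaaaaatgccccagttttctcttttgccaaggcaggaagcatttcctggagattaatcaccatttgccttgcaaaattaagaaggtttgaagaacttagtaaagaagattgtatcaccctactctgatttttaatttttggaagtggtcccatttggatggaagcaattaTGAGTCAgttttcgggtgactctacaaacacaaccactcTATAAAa
Mmp10: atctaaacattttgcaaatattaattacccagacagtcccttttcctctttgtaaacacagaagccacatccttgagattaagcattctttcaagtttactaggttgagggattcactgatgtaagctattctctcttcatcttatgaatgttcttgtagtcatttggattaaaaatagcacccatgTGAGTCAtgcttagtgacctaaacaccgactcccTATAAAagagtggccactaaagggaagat
The AP-1 letters began 35 bases before the start in Mmp13, 44 in Mmp12, 46 in Mmp3 and 63 in Mmp10. TATAAA followed them at 16, 7 and 29 bases before the start in Mmp13, Mmp3 and Mmp10, and was not found in the Mmp12 window.

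Values below are array intensities on a linear scale, and differences are of log2(intensity + 1). A call, higher or lower, needed 2-fold or more between the arrays and an intensity of 69.2 or more on the brighter one. That level is the median over every probe set and array. Background weighs heavily in intensities under 69.2, so folds are also given with such values raised to 69.2 (the raised fold). Of the 44 members, 27 reached 69.2 on at least 1 array (61.4%, all genes 58.7%). On all 3 arrays, 15 did (34.1%, all genes 49.1%), while 17 lay under 69.2 on every array (38.6%, all genes 41.3%). Those 17 were Mmp1a, Mmp1b, Mmp7, Mmp8, Mmp10, Mmp20, Mmp21, Mmp24, Mmp25, Mmp27, Adamts8, Adamts13, Adamts15, Adamts16, Adamts18, Adamts19 and Adamts20. Exactly equal deposited intensities on all 3 arrays were listed for 14 of these 17. By gene, that is 31.8% of the 44 members, close to the 31.4% of all genes. By probe set, it is 15 of 68 (22.1%) against 33.4% of all, where Adamts3 alone has 16 of the 68. Such ties give a difference of 0 and are no measure of likeness.

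The sample labels were set against markers of cell types. Relative to fibroblasts, all 8 brown adipocyte markers were called higher in DiBA and in BA, with summed intensities of 361 in fibroblasts, 37169 in DiBA and 38943 in BA. Of 8 fibroblast markers, 4 were lower and 2 higher in DiBA, and 5 lower and 2 higher in BA, with sums of 22000 in fibroblasts, 12298 in DiBA and 10026 in BA. The arrays of DiBA and BA also held markers of other cells: 6 of 6 endothelial and 6 of 6 skeletal muscle markers were higher in both than in fibroblasts. Their sums were 404, 2768 and 3296 for endothelium and 902, 9778 and 11151 for muscle, in the order fibroblasts, DiBA, BA. Of 6 smooth muscle and pericyte markers, 3 were lower and 1 higher in each, with sums of 10992, 2717 and 2860. The lower ones were Acta2, Tagln and Myh11, and the higher one was Rgs5, with 57.3, 750 and 865. In fibroblasts, Acta2 at 6596 and Tagln at 2841 made up most of the sum. DiBA thus carried endothelial and muscle transcripts at 0.84 and 0.88 of the BA sums although its label names cultured cells. The part of these cells in the protease and inhibitor levels was not tested. In such bulk RNA, fewer cells of a type and less RNA per cell cannot be told apart.

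Against fibroblasts, most called members were lower in DiBA and BA, while Timp4 was called higher in both. In DiBA, 11 of 44 members were lower (25.0%, where 7.67% of all 19938 genes were) and 4 higher (9.09%, close to the 8.54% of all genes). In BA, 12 were lower (27.3%, against 9.59% of all genes) and 1 higher (2.27%, against 9.51%). Both comparisons share the fibroblast array, so their counts are not independent of each other. Between DiBA and BA, 4 members were higher in DiBA (9.09%, against 0.973% of all genes) and 0 lower, as was the case for 0 of all genes (0%). With low values raised, DiBA had 3 members higher (6.82%, all genes 7.68%) and 11 lower (25.0%, all genes 6.93%) against fibroblasts. BA then had 1 higher (2.27%, all genes 8.74%) and 12 lower (27.3%, all genes 8.52%), and DiBA against BA kept counts of 4 higher (9.09%, all genes 0.687%) and 0 lower. The median difference of the members was -0.17 in DiBA and -0.20 in BA against fibroblasts and 0 between DiBA and BA, where all genes had a median of 0 each time.

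**Figure D1:**
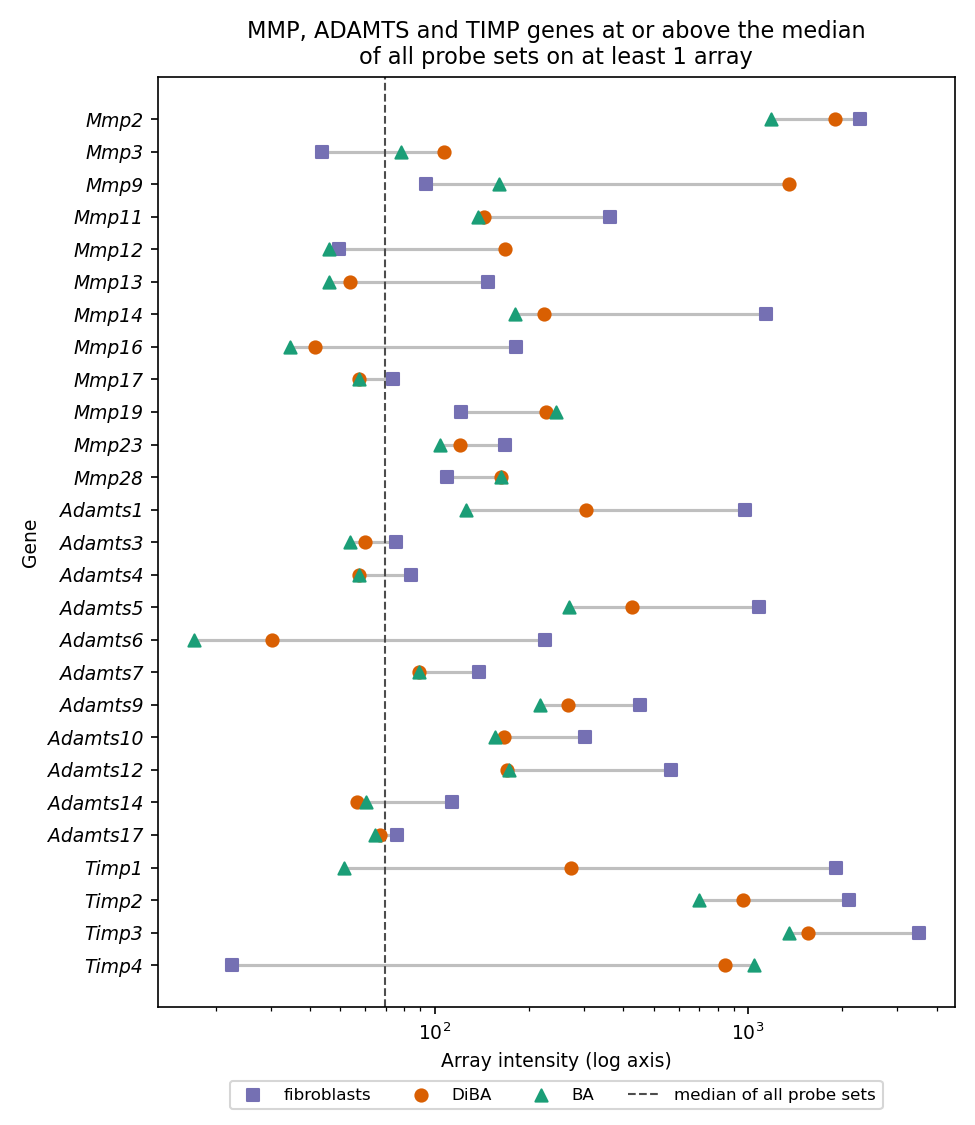
Array intensity (log axis) of the 27 member genes that reached the median of all probe sets (dashed line, 69.2) on at least 1 array, with 1 point per array. Fibroblasts hold the highest point for most genes, DiBA for Mmp3, Mmp9 and Mmp12, and BA for Timp4 and Mmp19, while DiBA and BA share the highest value for Mmp28.

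The levels fell in a common order for many members. Fibroblasts were above DiBA and DiBA above BA for 17 of 44 members (38.6%), an order seen for 17.7% of all genes. The reverse order held for 3 members, Timp4, Mmp19 and Mmp27, or 6.82% against 18.4% of all genes. DiBA lay above both other arrays for Mmp3, Mmp9 and Mmp12 (6.82% against 4.91%). It lay below both for Adamts12 and Adamts14 (4.55% against 8.35%), each by a small step from BA. These orders include differences of any size and have no error behind them.

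The gelatinases, Mmp2 and Mmp9, cut denatured collagen and basement membrane collagen. Mmp9 had an intensity of 93.7 in fibroblasts, 1351 in DiBA and 160 in BA. DiBA stood far above the other arrays, at 14.3-fold over fibroblasts and 8.41-fold over BA, while BA was 1.70-fold over fibroblasts. The DiBA minus BA difference of 3.07 was the 5th highest of all 19938 genes, and the 4th with low values raised. All 3 values lay above 69.2, so raising low values left its folds as they were. Mmp2 had 2281 in fibroblasts, 1902 in DiBA and 1188 in BA. It did not reach 2-fold in any comparison, with BA 1.92-fold below fibroblasts and 1.60-fold below DiBA.

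Mmp9 and Mmp12 are also made by white blood cells, so markers of those cells are given beside them. Of 8 neutrophil markers, 0 reached 69.2 on any array, with sums of 246 in fibroblasts, 264 in DiBA and 260 in BA. No intensity of theirs was 0, but exactly equal values were common. Differences of 0 were listed for 4 of the 8 in each comparison with fibroblasts and for 5 between DiBA and BA. These ties are no measure of likeness. Of 8 macrophage markers, 6 were called higher in DiBA and 5 in BA, each against fibroblasts, with sums of 1077, 3277 and 3079. Between DiBA and BA, 0 of the 8 macrophage markers reached 2-fold, and the largest step was Cd68, a lysosomal protein, at 0.55. Of 5 mast cell markers, 3 were called higher in DiBA and 3 in BA (1 and 3 with low values raised), with sums of 193, 640 and 794, and 0 reached 2-fold between DiBA and BA. The part of macrophages and mast cells in the Mmp9 and Mmp12 levels was not tested.

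Mmp12, the macrophage elastase, had 49.3 in fibroblasts, 168 in DiBA and 46.0 in BA. DiBA was the 1 array with a value above 69.2. It was 3.35-fold over fibroblasts and 3.59-fold over BA, with a raised fold of 2.40 in both. Mmp3, stromelysin-1, which cuts many matrix proteins and activates other MMP precursors, had 43.8, 107 and 78.0 in fibroblasts, DiBA and BA. Its 2.41-fold difference between DiBA and fibroblasts was 1.54-fold with the fibroblast value raised, so that call rests on a background value. DiBA was 1.36-fold above BA.

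Mmp13, a collagenase of fibrillar collagen, was highest in fibroblasts, with 148 there, 53.7 in DiBA and 45.9 in BA. Fibroblasts alone were above 69.2, and Mmp13 was 2.72-fold lower in DiBA and 3.17-fold lower in BA, with a raised fold of 2.12 for both. The other collagenases, Mmp1a, Mmp1b and Mmp8, were under 69.2 with equal values on the 3 arrays. Mmp11, stromelysin-3, which is activated inside the cell, had 363, 144 and 137 and was 2.51-fold lower in DiBA and 2.63-fold lower in BA than in fibroblasts. DiBA and BA lay close together for it, at 1.05-fold.

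Mmp13, Mmp12 and Mmp3 are thus neighbours with unlike orders over the arrays: fibroblasts were highest for the first, DiBA for the other two. Of the 10 genes of the run on chromosome 9, these 3 reached 69.2 anywhere. Mmp1a, Mmp1b, Mmp7 and Mmp10, which hold the same AP-1 letters as the printed windows, stayed under it with equal values on all 3 arrays.

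**Figure D2:**
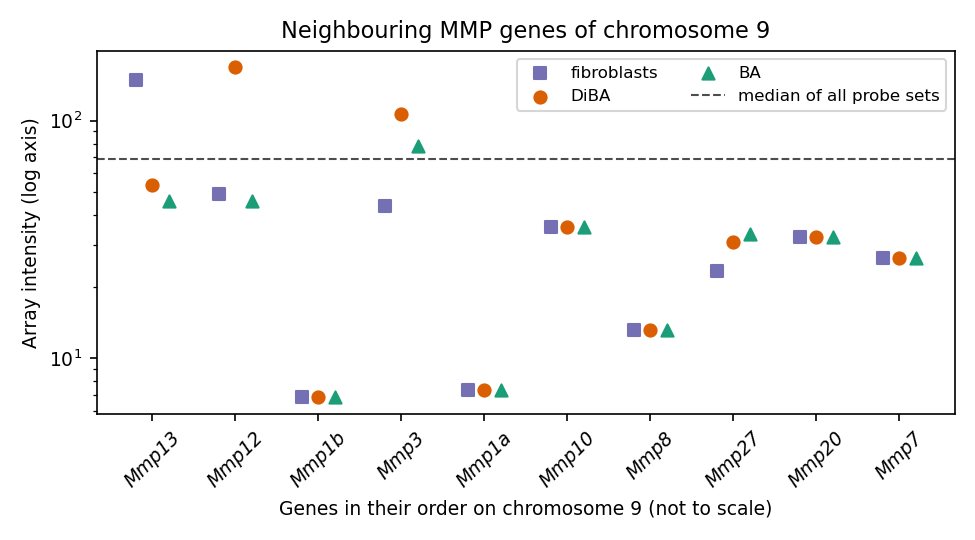
Array intensity (log axis) of the 10 neighbouring MMP genes of chromosome 9 in their order along it, with 1 point per array and the median of all probe sets dashed. Mmp13 is above the line in fibroblasts, Mmp12 in DiBA, and Mmp3 in DiBA and BA, while the other genes are below it on all arrays.

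Of 5 membrane-type MMPs measured, which are anchored in the cell surface, Mmp14 and Mmp16 were called lower in both DiBA and BA (all genes 7.67% and 9.59%). Mmp14, the main pericellular collagenase and an activator of the Mmp2 precursor, had 1139 in fibroblasts, 224 in DiBA and 180 in BA. Fibroblasts stood well above both others, by 5.07-fold over DiBA and 6.28-fold over BA, and DiBA was 1.24-fold above BA. Mmp16, another transmembrane member, had 181, 41.5 and 34.5. It was 4.29-fold lower in DiBA and 5.14-fold lower in BA, which becomes 2.60-fold in each with values under 69.2 raised. Mmp17, linked to the membrane by a lipid anchor, had 73.7 in fibroblasts and 57.4 in both others. Mmp24 and Mmp25 were under 69.2 with equal values on all arrays.

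Of the remaining MMPs, Mmp19 and Mmp28 had larger values in DiBA and BA than in fibroblasts without reaching 2-fold. Mmp19 had 121, 226 and 243 in fibroblasts, DiBA and BA, or 1.86-fold and 1.99-fold over fibroblasts. Mmp28, epilysin, had 109, 162 and 162, or 1.48-fold over fibroblasts in both. Mmp23 had 167, 120 and 104, with BA 1.60-fold below fibroblasts.

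Of 7 proteoglycan-cutting ADAMTS enzymes, 2 were called lower in DiBA (all genes 7.67%) and 3 in BA (9.59%), against fibroblasts. In both, 0 were called higher (all genes 8.54% and 9.51%). Adamts1, which cuts aggrecan and versican, had 982 in fibroblasts, 303 in DiBA and 126 in BA. The 3 arrays were well apart, with DiBA 3.23-fold and BA 7.75-fold below fibroblasts and DiBA 2.40-fold above BA. Adamts5, the main aggrecan-cutting enzyme of mouse cartilage and a neighbour of Adamts1 on chromosome 16, had 1085, 427 and 268. It was 2.54-fold lower in DiBA and 4.03-fold lower in BA, and DiBA was 1.59-fold above BA, in the same order as Adamts1. Adamts4, another aggrecanase, had 84.1 in fibroblasts and 57.4 in both others.

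Adamts9, a versican-cutting enzyme, was read by 6 probe sets, with a mean level of 451 in fibroblasts, 267 in DiBA and 217 in BA. It was 2.08-fold lower in BA and 1.69-fold lower in DiBA than in fibroblasts. All 6 probe sets were lower in both, from -1.02 to -0.54 in DiBA and from -1.49 to -0.79 in BA. Of the 6, 2 reached 2-fold in BA and 1 in DiBA, and with the brightest probe set alone the BA difference was -0.96, so the BA call depends on how probe sets are combined.

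Of 9 ADAMTS enzymes with other or less known substrates, Adamts6 and Adamts12 were called lower, in both DiBA and BA (all genes 7.67% and 9.59%). Adamts6, which acts on microfibril proteins, had 225 in fibroblasts, 30.1 in DiBA and 17.1 in BA. The DiBA and BA values were under 69.2, and the 7.25-fold and 12.5-fold differences each became 3.22-fold with them raised. Adamts12, which cuts cartilage oligomeric matrix protein, had 569, 170 and 173, and was 3.33-fold lower in DiBA and 3.28-fold lower in BA. For Adamts10, an enzyme of fibrillin microfibrils, values were 302, 166 and 155, or 1.81-fold and 1.94-fold lower. Adamts7 had 138 in fibroblasts and 89.2 in both others, 1.54-fold lower.

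The procollagen N-propeptidases Adamts3 and Adamts14, which trim the end of procollagen chains, stayed within 2-fold. Adamts14 had 114, 56.6 and 60.3, and was 1.99-fold lower in DiBA and 1.87-fold lower in BA. Adamts3 was read by 16 probe sets, with mean levels of 75.2, 60.0 and 53.4. Every one of its 16 probe sets was lower in DiBA and in BA than in fibroblasts, by medians of -0.30 and -0.45, and 2 of them reached 2-fold in BA. Adamts17, with 5 probe sets, had medians of -0.08 and -0.12, and its lowest probe set was at -0.58 in DiBA and -0.77 in BA. Probe sets of 1 gene on 1 array share their RNA and are not replicates.

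**Figure D3:**
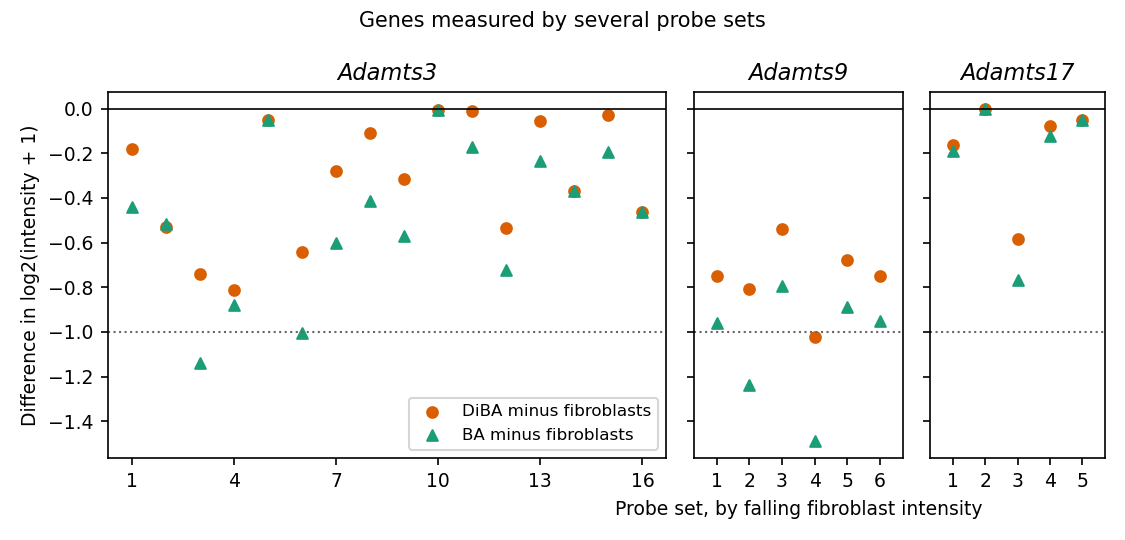
Difference from fibroblasts in log2(intensity + 1) for each probe set of Adamts3 (16), Adamts9 (6) and Adamts17 (5), for DiBA (circles) and BA (triangles), ordered by fibroblast intensity. All points lie at or below 0, with those of Adamts9 between -1.49 and -0.54.

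Against fibroblasts, Timp1 and Timp4 went opposite ways. Timp1, a secreted inhibitor of most MMPs, had 1912 in fibroblasts, 272 in DiBA and 51.3 in BA. Each step was large: DiBA was 7.00-fold below fibroblasts, BA was 36.6-fold below them (27.3-fold with the BA value raised), and DiBA was 5.23-fold above BA (3.90-fold raised).

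Timp4, an inhibitor found mainly in heart, fat and brain, had 22.6 in fibroblasts, 845 in DiBA and 1048 in BA. It was far above the fibroblast value in both, by 35.9-fold in DiBA and 44.5-fold in BA. With the fibroblast value raised, the folds were 12.1 and 15.0. DiBA was 1.24-fold below BA, the lowest DiBA minus BA difference among the members at -0.31.

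Timp2, which inhibits MMPs and takes part in activating the Mmp2 precursor, had 2108 in fibroblasts, 965 in DiBA and 699 in BA. It was 2.18-fold lower in DiBA and 3.01-fold lower in BA. Timp3, which binds to matrix and also inhibits ADAMTS enzymes, had 3503, 1552 and 1351, and was 2.26-fold and 2.59-fold lower. DiBA and BA differed by 1.38-fold for Timp2 and 1.15-fold for Timp3.

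Timp1, Timp3 and Timp4 each overlap a synapsin gene in the RefSeq table. Syn1 and Syn3, the partners of Timp1 and Timp3, had equal values of 45.2 and 53.2 on the 3 arrays. Syn2, the partner of Timp4, had 70.5 in fibroblasts and 117 in both others, so it was higher where Timp4 was, by under 2-fold. Cep295nl, which overlaps Timp2, had 121, 67.9 and 55.4, the order of Timp2, and 1700020L24Rik, which overlaps Mmp28, had 57.6 in fibroblasts and 105 in both others, the order of Mmp28. Mib2, which overlaps Mmp23, had 116, 163 and 183, opposite to the order of Mmp23, and Tmem198b, which overlaps Mmp19, had 265, 170 and 190, highest where Mmp19 was lowest. The part of overlapping transcripts in the member levels was not tested.

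**Figure D4:**
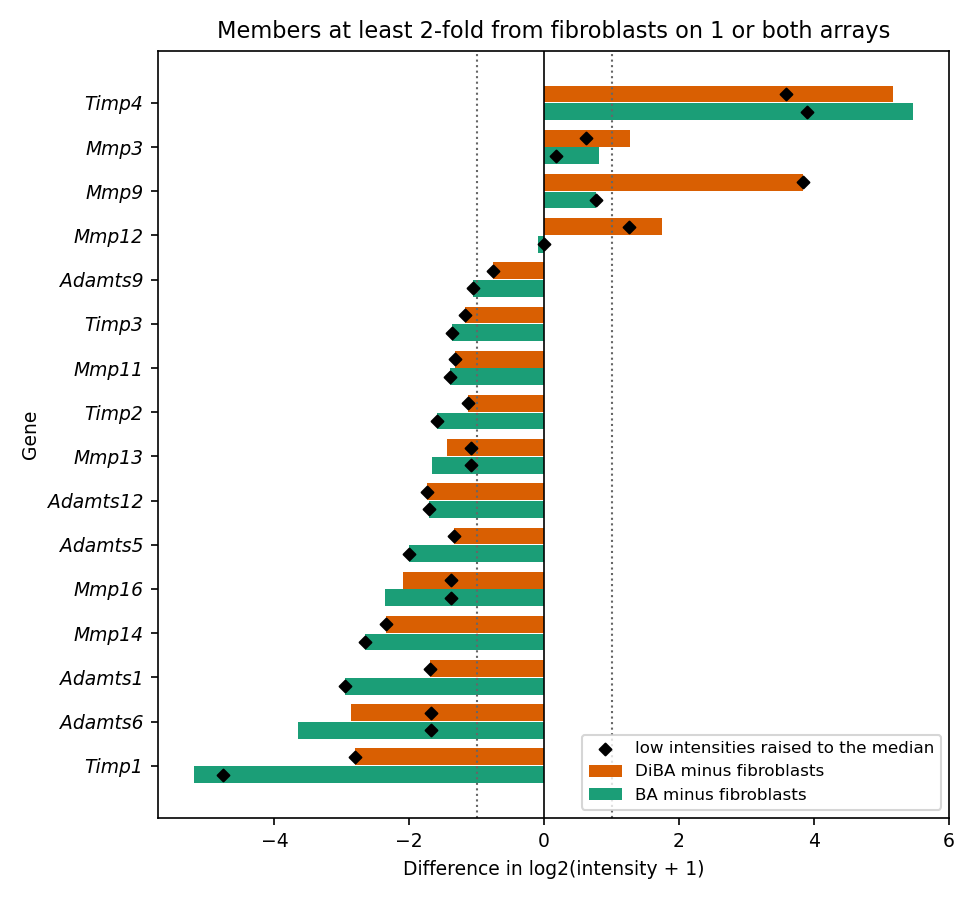
Difference from fibroblasts in log2(intensity + 1) for the 16 members called in DiBA, in BA or in both, with bars for deposited values, diamonds for values under 69.2 raised to it, and dotted lines at 2-fold. Timp4 lies at 5.17 and 5.48, Timp1 at -2.81 and -5.19, and Mmp9 at 3.84 in DiBA and 0.76 in BA.

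Between DiBA and BA, 40 of 44 members were within 2-fold (90.9%, against 98.9% of all genes), so a larger share of members than of all genes was outside it. The 4 outside were Mmp9, Timp1, Mmp12 and Adamts1, all higher in DiBA. After them came Adamts6 at 0.79, Mmp2 at 0.68, Adamts5 at 0.67, Timp2 at 0.47 and Mmp3 at 0.45, of which Adamts6 was at 0 with low values raised. Members of 2 kinds made up the 4: Timp1 and Adamts1 were highest in fibroblasts, and Mmp9 and Mmp12 were higher in DiBA than in fibroblasts as well. Differences of 0 were listed for 19 of 44 members, and for 8981 of all 19938 genes, and are no measure of likeness.

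**Figure D5:**
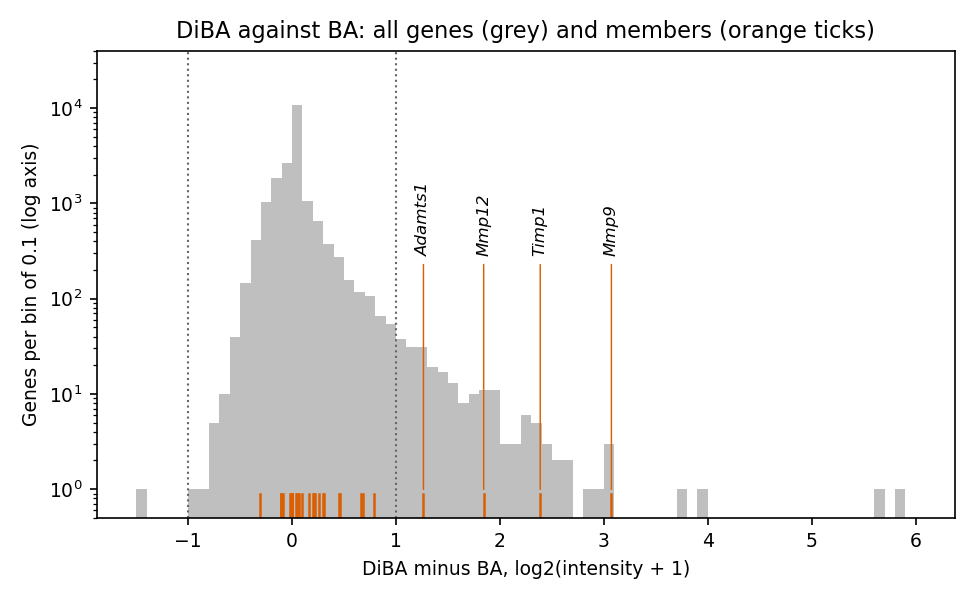
Number of genes (log axis) by DiBA minus BA difference in log2(intensity + 1), in bins of 0.1, for all 19938 genes in grey, with the 44 members as ticks. Mmp9 (3.07), Timp1 (2.39), Mmp12 (1.84) and Adamts1 (1.26) lie above 1 and no member lies below -1, while equal values fall in the bin that starts at 0.

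Other genes of matrix turnover were taken from lists chosen by role, with earlier results of these data known. Their counts beside the shares of all genes are a description and no test. Of 27 measured proteases, activators and inhibitors of the cell surface and lysosome, 9 were lower (all genes 7.67%) and 3 higher (8.54%) in DiBA than in fibroblasts. In BA, 11 were lower (all genes 9.59%) and 2 higher (9.51%), and the medians were -0.47 in DiBA and -0.66 in BA. The higher ones, named after their values were seen, were Ctsb and Ctss, lysosomal cathepsins, and Pcsk6, a proprotein convertase, of which Ctss was called in DiBA alone. Between DiBA and BA, 0 of the 27 reached 2-fold. With low values raised, 10 of them were lower in BA than in fibroblasts, as Adam8, at 52.4 in BA, lost its call. The other counts of this list stayed the same. Adam19, a membrane protease that sheds growth factors, had 792 in fibroblasts, 120 in DiBA and 112 in BA, and Adam12, of the same family, 640, 157 and 170. Plaur, the urokinase receptor, had 301, 80.7 and 62.9, and Tll1, a procollagen C-propeptidase, had 229, 39.1 and 37.1. Of 6 ADAMTS-like genes, which lack the protease domain, 1 was lower in both (all genes 7.67% and 9.59%), Adamtsl5, with 286, 110 and 122.

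Of 21 matrix substrates measured, 11 were lower (all genes 7.67%) and 3 higher (8.54%) in DiBA than in fibroblasts. In BA, 15 were lower (all genes 9.59%) and 3 higher (9.51%), and the medians were -1.15 in DiBA and -1.41 in BA. With low values raised, 10 were lower and 2 higher in DiBA, and 14 lower and 3 higher in BA. The 3 higher ones, named after their values were seen, were Dcn (decorin) with 2655, 5590 and 5934, Lum (lumican) with 341, 815 and 817, and Vwf (von Willebrand factor) with 59.9, 122 and 157. Dcn and Lum are also among the fibroblast markers, and Vwf is made by endothelium. Vcan, the proteoglycan versican that Adamts1, Adamts5 and Adamts9 cut, had 2023 in fibroblasts, 553 in DiBA and 87.6 in BA. DiBA was above BA by 2.64 on the log2 scale. Fn1 (fibronectin) had 7920, 2799 and 850, Fbn2 (fibrillin-2) 1571, 146 and 47.8, and Thbs1 (thrombospondin-1) 9341, 881 and 55.5. Between DiBA and BA, 5 of the 21 substrates were higher in DiBA (all genes 0.973%) and 0 lower (all genes 0%).

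Of 12 measured AP-1, ETS and RUNX factors, 3 were lower in DiBA than in fibroblasts (all genes 7.67%) and 4 in BA (9.59%). In both, 0 were higher (all genes 8.54% and 9.51%). Between DiBA and BA, 3 were higher in DiBA (all genes 0.973%). With low values raised, 3 were lower in DiBA, 3 were lower in BA, and 2 were higher in DiBA than in BA. Fosl1, a Fos-family part of AP-1, had 445 in fibroblasts, 164 in DiBA and 49.2 in BA. Runx1, a transcription factor, had 825, 269 and 99.4, and Fosl2, also of the Fos family, 644, 267 and 201. The other Fos and Jun genes listed, Fos, Fosb, Jun, Junb and Jund, were called in no comparison. Jun, the brightest of them, had 688, 647 and 688. Etv5, an ETS factor, had 136, 137 and 66.7, so DiBA and fibroblasts were alike for it and BA lower. BA was at -1.01 against fibroblasts and DiBA at 1.03 against BA. With low values raised these became -0.91 and 0.93, both under 2-fold.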

How the data were processed

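Total RNA from 3 mouse samples was labelled with biotin and read on 1 single-colour Affymetrix array each. The authors deposited 1 linear intensity per probe set and array. Per the submitters' processing notes, Affymetrix Expression Console was used. Its version and its summarization, background and normalization methods were not given in the sources used here. Median intensities were 67.8 (fibroblasts), 71.5 (DiBA) and 67.7 (BA), so values were taken as already scaled between arrays. Probe sets were named from the platform's probe table, and the 44 member symbols all matched RefSeq (GRCm38.p6) by gene identifier.

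Intensities were analysed as log2(intensity + 1), a scale that understates folds of dim genes, and probe sets of 1 gene were averaged as log2 values. With 1 array per group there was no test, and the number of arrays limits the precision. Members named are those called in any comparison plus a fixed list of well known ones, with some others mentioned more briefly. Of each other list, up to 4 called genes with the largest differences were planned. Further called genes of the protease and substrate lists, and uncalled Fos and Jun genes, were added after their values were seen. The members and lists were chosen with earlier results of these data known. The steps were tested on simulated data, with changes placed only in genes well above 69.2 and without equal values. Dim and tied genes were thus not covered by it. Python 3.11.15, pandas 2.3.3 and numpy 2.4.6 were used. Alternatives covered array centring, quantile normalization, the level minimum, low values raised to it, the pseudocount, the choice of probe set and the fold threshold.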

Additional observations from a re-analysis of the deposited data

How the results depend on the processing

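Over 17 named members, 3 comparisons and 7 alternatives, 11 of 357 values lost a call and 0 called differences changed sign. The other 346 kept their side of it, but include values that had no call to lose. Calls to start from were 4 higher and 11 lower in DiBA, 1 and 12 in BA, and 4 higher in DiBA than in BA. Leaving out the level minimum could not remove a call, and increasing it could not add one. Of the named members, the brightest probe set could change Adamts9 alone. The uncalled Mmp11 difference between DiBA and BA, 0.07, became -0.01 with centred arrays. Requiring the 75th percentile of intensity removed 9 calls, of Adamts6, Mmp13 and Mmp16 in both comparisons with fibroblasts, Mmp12 in DiBA against fibroblasts and against BA, and Mmp3 in DiBA. The brightest probe set removed Adamts9 in BA, and raising low values removed Mmp3 in DiBA. Under that percentile, 2 of 44 members were higher in DiBA than in fibroblasts, beside 1265 of all 19938 genes. With a 4-fold threshold, 2 members were higher and 4 lower in DiBA, beside 731 and 372 of all genes. In BA 6 were lower, beside 674 of all genes, and 2 were higher in DiBA than in BA, beside 33. With a 1.5-fold threshold, 4 members were higher in BA than in fibroblasts, beside 2675 of all genes. With quantile normalization 2 were, beside 1914. The members' median difference from fibroblasts became 0 in both DiBA and BA when values under 69.2 were raised, since 17 of 44 members then have a difference of 0 by construction. No paired analysis was possible because each group is 1 array, and for the same reason no array could be left out. Intensities near background limit what Adamts6, Mmp3, Mmp12, Mmp13, Mmp16, Timp1 in BA and Timp4 in fibroblasts can show.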
